A study of Mus musculus with 9 samples.

Results

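The genes described here encode the machinery of oxidative phosphorylation. They were chosen by name from the Ensembl identifiers of a mouse count table: protein-coding genes whose symbols begin with Ndufa, Ndufb, Ndufc, Ndufs, Ndufv, Uqcr, Cox4 to Cox8 or Atp5, together with Sdha, Sdhb, Sdhc, Sdhd, Cyc1 and Cycs, and the protein genes of the mitochondrial genome. The rule found 101 of the 21159 genes in the table, 92 of them nuclear and 9 mitochondrial. Of the nuclear genes, 44 belong to complex I, 4 to complex II, 9 to complex III, 17 to complex IV and 17 to complex V, and 1 encodes cytochrome c. The 44 of complex I are 36 subunits and 8 assembly factors. A filter on low counts left 90 of the 92 nuclear genes for testing, without Cox4i2 and Ndufa4l2, and 8 of the 9 mitochondrial genes. mt-Atp6 is listed at 0 counts in all 9 libraries. Cox7b2, Cox8b, Cox8c, mt-Atp8, mt-Co2, mt-Co3, mt-Nd4l and another Atp5o identifier were not analysed here.

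In the inner mitochondrial membrane, complexes I and II pass electrons from NADH and succinate to ubiquinone, complex III hands them to the small carrier cytochrome c, and complex IV delivers them to oxygen. Complexes I, III and IV pump protons as they do so, and complex V, the ATP synthase, uses the proton gradient to make ATP. Most subunits are encoded in the nucleus and imported, whereas a small core of complexes I, III, IV and V is encoded by mitochondrial DNA, so each of these 4 complexes needs both genomes.

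The study compared 3 groups of 3 libraries, all grown from lineage-depleted (Lin-) bone marrow cells of Runx2 fl/fl mice with a CreER T2 transgene, which put Cre recombinase under the control of 4-hydroxytamoxifen (4-OHT). The cells were exposed to a retrovirus that expresses KMT2A-MLLT1-eGFP (also called MLL-ENL), a fusion found in leukaemia, then grown on methylcellulose with replating every 7 days. BM progenitors are untreated cells collected before the first replating, whereas Runx2wt and Runx2ko cells are transformed cells grown on in suspension. Runx2wt cells received the solvent ethanol and Runx2ko cells received 4-OHT at 400 nM for 24 h, which switches on Cre to delete Runx2. The floxed allele and the Cre transgene are therefore in every library, controls included. The protocol places the retrovirus before the BM progenitor harvest, and the labels do not say what share of those cells carried the fusion. Passage number, culture in suspension and transformation go together against the BM progenitors and cannot be told apart, and neither can Runx2 deletion and 4-OHT with active Cre. The labels do not name the promoter of the Cre transgene, and they call the samples independent biological replicates.

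The libraries held 3118594 to 5348177 counts, with 14377 to 15634 genes detected. Runx2 itself, given here in CPM (counts per 1000000 after TMM scaling of the library), was at 53.1, 46.5 and 58.6 CPM in BM progenitors, 159, 178 and 131 CPM in Runx2wt cells and 20.9, 120 and 134 CPM in Runx2ko cells. The deleted exons are not given and the reads are 3′ tags, so this level does not check the deletion. One library differed from all others of its group. The correlation of log2 CPM over genes was 0.788 and 0.761 between Runx2ko replicate 1 and the other Runx2ko libraries, against 0.934 between those. Its summed markers of mast cells and basophils reached 3921 CPM and of megakaryocytes 763 CPM, while those of monocytes and macrophages were at 575 CPM. Values that move most without this library are given both ways.

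Several cell type markers differed between the groups. Counts of markers that passed stand beside the shares of all tested genes. Of those, 5.23% fell and 8.28% rose in Runx2wt against BM progenitors, and 7.14% fell and 10% rose in Runx2ko. The 8 measured eosinophil markers summed to 1372 to 1832 CPM in BM progenitors, 2.49 to 4.5 CPM in Runx2wt and 8.72 to 18 CPM in Runx2ko, and 7 of 8 fell in each comparison with BM progenitors. Epx, the eosinophil peroxidase, was at 0 in all 3 Runx2wt libraries and in 2 of 3 Runx2ko libraries. The 10 neutrophil markers summed to 11941 to 16253, 1258 to 4179 and 611 to 10251 CPM in the same order of groups, and 3 of 10 fell in each comparison. The 10 mast cell and basophil markers summed to 1099 to 1242, 112 to 352 and 88.5 to 3921 CPM, with 1 higher and 4 lower in Runx2wt and 2 higher and 0 lower in Runx2ko. Tpsb2, a mast cell tryptase, was at 0 in all 3 BM progenitor libraries. The 10 monocyte and macrophage markers summed to 4079 to 5883, 6712 to 12623 and 575 to 10992 CPM. Of the 9 tested, 2 rose and 1 fell in Runx2wt, and 1 rose and 1 fell in Runx2ko, the latter counts near the shares of all genes. The erythroid markers summed to at most 44.3 CPM in any library, and 1 of the 2 tested rose in Runx2ko. Megakaryocyte markers were at 69.8 to 72 CPM in BM progenitors and at most 29.1 CPM in the transformed libraries other than Runx2ko replicate 1. The 7 T and B cell markers together stayed at or below 8.53 CPM in every library, while T-ALL cells are named in the text on RNA extraction. These shifts move with the comparisons below, and their part in the results was not tested. In bulk RNA, fewer cells of a type and less RNA per cell cannot be told apart.

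The promoters of 4 genes that carry the results are shown here: Atp5g3, Atp5k and Ndufb6, which were lower in Runx2ko cells, and Cox7a2l, which was higher. They were chosen after their values were seen. Each runs from 250 bases before to 50 bases after a RefSeq transcript start on GRCm38.p6, 5′ to 3′ on the gene's strand, which is the minus strand for all 4. Capitals mark matches, on either strand, to the consensus motif of nuclear respiratory factor NRF1 (with 1 free base) and to CCGGAAG, bound by ETS factors such as GABP. Atp5g3 lies at chr2:73911277-73911576, Atp5k at chr5:108434350-108434649, Ndufb6 at chr4:40279372-40279671 and Cox7a2l at chr17:83514284-83514583.
Atp5g3: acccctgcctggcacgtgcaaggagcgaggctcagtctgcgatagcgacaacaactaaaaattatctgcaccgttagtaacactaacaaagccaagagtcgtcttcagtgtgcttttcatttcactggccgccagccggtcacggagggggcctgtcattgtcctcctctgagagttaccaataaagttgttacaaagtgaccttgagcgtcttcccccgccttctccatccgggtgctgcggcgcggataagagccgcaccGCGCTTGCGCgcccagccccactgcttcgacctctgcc
Atp5k: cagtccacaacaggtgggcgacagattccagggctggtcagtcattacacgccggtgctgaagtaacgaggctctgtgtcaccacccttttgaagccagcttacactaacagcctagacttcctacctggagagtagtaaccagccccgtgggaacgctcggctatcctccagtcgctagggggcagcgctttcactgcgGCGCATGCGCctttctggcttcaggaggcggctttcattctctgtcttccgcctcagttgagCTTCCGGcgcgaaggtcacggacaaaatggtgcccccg
Ndufb6: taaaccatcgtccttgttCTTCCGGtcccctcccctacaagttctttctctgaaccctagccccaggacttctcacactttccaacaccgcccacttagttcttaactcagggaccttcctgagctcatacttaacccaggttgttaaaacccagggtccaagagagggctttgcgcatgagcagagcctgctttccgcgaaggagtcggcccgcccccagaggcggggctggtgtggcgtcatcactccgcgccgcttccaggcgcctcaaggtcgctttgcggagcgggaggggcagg
Cox7a2l: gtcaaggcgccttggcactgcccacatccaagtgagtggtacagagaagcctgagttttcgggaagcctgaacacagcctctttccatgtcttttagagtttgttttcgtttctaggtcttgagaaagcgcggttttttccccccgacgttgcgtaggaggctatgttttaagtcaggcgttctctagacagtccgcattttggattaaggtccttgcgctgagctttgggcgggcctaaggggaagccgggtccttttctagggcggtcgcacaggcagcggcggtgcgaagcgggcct
The Atp5g3 window holds 1 NRF1 motif, the Atp5k window 1 NRF1 and 1 ETS motif and the Ndufb6 window 1 ETS motif. No searched motif lies in the Cox7a2l window. That window lies inside the gene as GENCODE annotates it (chr17:83501918-83517330), so the 5′ end of that annotation, at 83517330, was not covered.

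Such motifs were common in the family. RefSeq gave promoters for 75 of the 92 nuclear genes, in 80 windows, against 21263 windows of all protein-coding genes. The NRF1 motif was in 25% of the family's windows and 6.38% of all windows. The ETS motif was in 22.5% against 11.6%, and the YY1 motif AAGATGGCG in 10% against 1.83%. The TATA motif TATAAA was rarer, in 2.5% against 8.26%. The median GC content was 58.8% against 56.3% and the median number of CpG dinucleotides 20 against 13. Genes with an NRF1 motif had a median log2 fold change of -0.57 in Runx2ko against BM progenitors, with 10 of 19 lower, and those without one had -0.42, with 16 of 56 lower. In Runx2wt the medians were -0.31 and -0.28, with 2 of 19 and 3 of 56 lower. The ETS motif went the other way: in Runx2ko the median was -0.42 with it, with 4 of 18 lower, and -0.54 without it, with 22 of 57 lower. In Runx2wt the ETS medians were -0.22 and -0.31, with 2 of 18 and 3 of 57 lower. For the YY1 motif the Runx2ko medians were -0.41 with it and -0.54 without it, with 2 of 8 and 24 of 67 lower. The YY1 medians in Runx2wt were -0.28 and -0.31, with 0 of 8 and 5 of 67 lower. Of all tested genes, 5.23% fell in Runx2wt and 7.14% in Runx2ko. These are descriptions of letters in a window, with no test.

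Nuclear respiratory genes had lower summed levels in transformed cells than in BM progenitors, with the lowest mean in Runx2ko cells. They took 2.42% to 2.46% of all counts in BM progenitors, 1.76% to 2.13% in Runx2wt cells and 1.46% to 1.77% in Runx2ko cells. The BM progenitor libraries lay above every transformed library, while in these shares of counts the transformed groups overlapped by a narrow margin. In summed CPM they were narrowly apart, at 18385 to 21105 CPM in Runx2wt and 14596 to 18333 CPM in Runx2ko. With RLE factors in place of TMM they overlapped, so this order depends on the scaling. The summed level was 23367 ± 399 CPM in BM progenitors, 19352 ± 1521 CPM in Runx2wt and 16417 ± 1871 CPM in Runx2ko (SD, n = 3 each). The ratio to BM progenitors was 0.828 for Runx2wt and 0.703 for Runx2ko.

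Gene by gene, 1 nuclear member rose and 8 of 90 fell in Runx2wt against BM progenitors (edgeR quasi-likelihood test, Benjamini-Hochberg adjusted p under 0.05), where 8.28% of all 11196 tested genes rose and 5.23% fell. Their median log2 fold change was -0.30, against 0.01 over all tested genes, and 71 of 90 were below 0. In Runx2ko against BM progenitors 1 rose and 29 of 90 fell, against 10% and 7.14% of all genes. There the median was -0.50, against 0.07 over all genes, and 80 of 90 were below 0. Groups that did not overlap at all were counted too. Of 90 members, 46 lay lower in every Runx2wt library than in any BM progenitor library and 10 higher, against 24.5% and 24.8% of all genes. For Runx2ko, 54 lay lower and 5 higher, against 18.9% and 19.5%. At an unadjusted p under 0.05, 29 members were lower and 4 higher in Runx2wt, against 14% and 17.7% of all genes, and 45 lower and 4 higher in Runx2ko, against 14.5% and 19%. DESeq2 called 15 lower and 2 higher in Runx2wt, against 6.76% and 9.27%, and 34 lower and 1 higher in Runx2ko, against 8.43% and 11.2%. Both comparisons share the BM progenitor libraries.

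The counts of calls depended on single libraries. Without BM progenitor replicate 1, 2 or 3, 0, 0 and 0 nuclear members fell in Runx2wt, where 1.03%, 0.874% and 0.723% of all genes fell. Without Runx2wt replicate 1, 2 or 3 the count was 5, 0 and 2, against 2.96%, 1.05% and 2.3% of all genes, and without Runx2ko replicate 1, which enters through the shared estimate of spread, it was 21, against 12.1%. In Runx2wt 0 of the 9 calls held in all 9 fits that leave out a library. For Runx2ko the count fell from 29 to 9, 8 and 8 without BM progenitor replicate 1, 2 or 3, where 1.7%, 1.53% and 1.57% of all genes fell. Without Runx2ko replicate 1 it was 31, against 12.6%, including 28 of the 29, and the median log2 fold change of the nuclear members was -0.45. In Runx2ko the falls of Ndufb6, Cyc1, Uqcr10, Atp5g1, Atp5g3, Atp5k and Cycs and the rise of Cox7a2l held in all 9 such fits, and the other 22 falls were lost in at least 1 of them, each without at least 1 BM progenitor library.

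**Figure D1:**
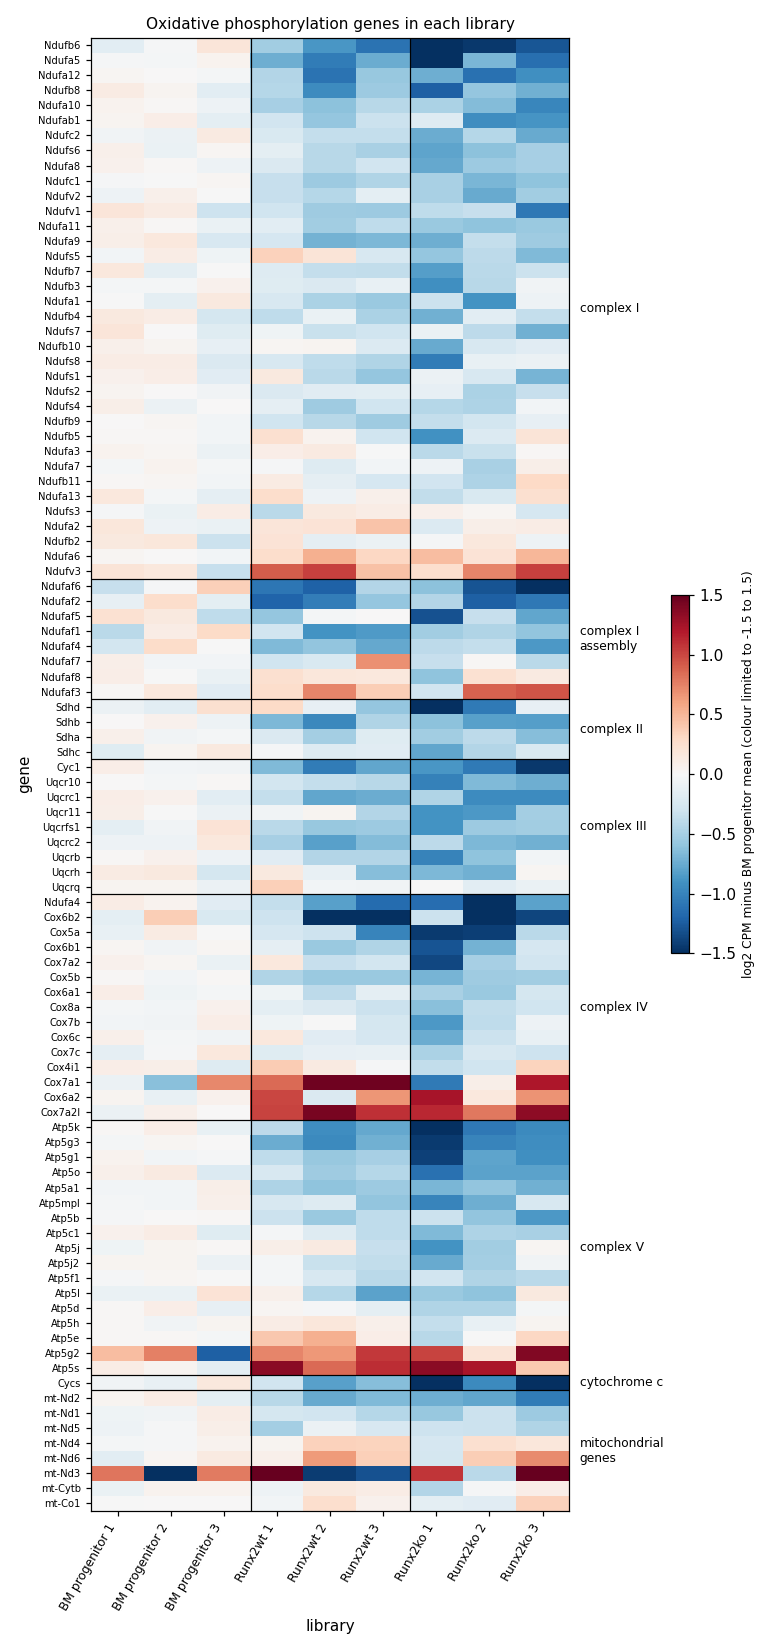
Each row is a tested gene, each column a library, and colour gives the log2 CPM minus the BM progenitor mean, limited to -1.5 to 1.5. The rows are grouped by complex and ordered by log2 fold change in Runx2ko. Most rows turn blue across the 6 transformed libraries, Cox7a2l is red in all 6, and most mitochondrial rows stay pale.

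By summed level, complex V, the ATP synthase, had the lowest ratio to BM progenitors among the 5 complexes in both transformed groups. Complex V summed to 8209, 8401 and 8170 CPM in BM progenitors, 6627, 5928 and 5936 CPM in Runx2wt and 4547, 5179 and 5557 CPM in Runx2ko. The 3 groups did not overlap, and the ratios to BM progenitors were 0.746 and 0.617. This sum rests in large part on Atp5g3: without it the ratios were 0.818 and 0.68, above those of complex II. By median log2 fold change of its genes complex V, at -0.24 and -0.41, was not the lowest, since complex III was at -0.35 and -0.65. Complex IV had the smallest difference in Runx2wt, with 4784, 4658 and 4656 CPM in BM progenitors, 4783, 4093 and 3955 CPM in Runx2wt and 2889, 3471 and 4247 CPM in Runx2ko. Runx2wt replicate 1 lay within the BM progenitor range there, and the ratios were 0.91 and 0.753. The ratios were 0.873 and 0.776 for complex I subunits, 0.798 and 0.658 for complex II, and 0.836 and 0.711 for complex III. In each of the 5 complexes the ratio of Runx2ko, taken from group means, was below that of Runx2wt. By library, the transformed groups overlapped in complexes I, III and IV. There the highest Runx2ko library, at 5418, 2320 and 4247 CPM, lay above the lowest Runx2wt library, at 5357, 2149 and 3955 CPM. Without Runx2ko replicate 1 the Runx2ko ratios were 0.809, 0.687, 0.731, 0.821 and 0.65 for complexes I to V, still below those of Runx2wt.

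**Figure D2:**
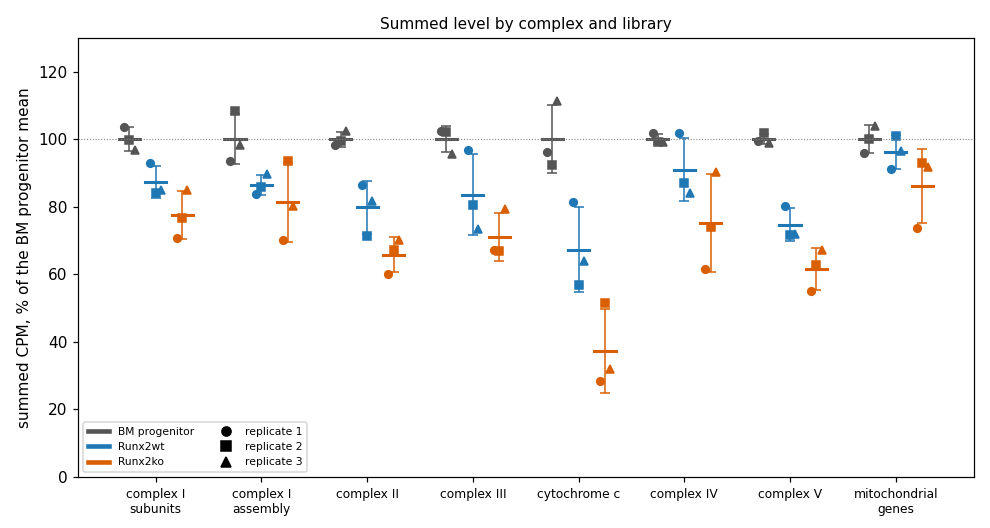
The summed CPM of each complex is drawn as a percentage of the BM progenitor mean, by library (symbols), with the group mean (bar) and SD (error bar, n = 3). Complex V lies below every BM progenitor library in all 6 transformed libraries, and by group mean the mitochondrial genes of the last column lie closest to 100% in both transformed groups.

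Counts by complex, here and below, stand beside the shares of all tested genes. Of those, 5.23% fell and 8.28% rose in Runx2wt, and 7.14% fell and 10% rose in Runx2ko. Complex I accepts electrons from NADH. Of its 36 nuclear subunits, 0 rose and 1 fell in Runx2wt, a share below that of all genes. In Runx2ko 0 rose and 11 fell, and the medians were -0.31 in Runx2wt and -0.40 in Runx2ko. The accessory subunits, which surround the catalytic core, made up 10 of the 11 that fell, out of 29. Among the 7 core subunits 1 of 7 fell, Ndufv2, an iron-sulfur protein of the NADH-oxidising arm. The medians in Runx2ko were close, at -0.42 for accessory and -0.36 for core subunits, with 25 of 29 and 7 of 7 below 0. The accessory subunit Ndufb6 of the membrane arm was the most reduced nuclear member in Runx2ko. It was at 72.7, 80.1 and 92 CPM in BM progenitors, 56.4, 44.5 and 37.7 CPM in Runx2wt and 27, 29.8 and 33.2 CPM in Runx2ko. The 3 groups lay in order without overlap. Its log2 fold change was -0.82 (SE 0.20, edgeR adjusted p = 0.0281) in Runx2wt and -1.44 (SE 0.20, adjusted p = 0.00394) in Runx2ko, the latter a 2.72-fold fall, and the gene lies at chr4:40270591-40279421 on GRCm38.

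Ndufa5, an accessory subunit of the matrix arm, was at 215, 214 and 227 CPM in BM progenitors, 132, 106 and 130 CPM in Runx2wt and 47.9, 136 and 99.9 CPM in Runx2ko. The BM progenitors lay above all others, and Runx2ko replicate 1 was the lowest library. It fell by 1.21 on the log2 scale in Runx2ko (SE 0.31, edgeR adjusted p = 0.0295) and by 0.89 without that library (adjusted p = 0.00526), while its log2 fold change of -0.84 in Runx2wt did not pass (adjusted p = 0.0971). Ndufa12, the accessory subunit that takes the place of the assembly factor Ndufaf2, fell by 0.91 in Runx2ko (adjusted p = 0.0177). Ndufb8, another subunit of the membrane arm, fell by 0.82 (adjusted p = 0.0272). Ndufv2 was at 145, 160 and 152 CPM in BM progenitors, 120, 113 and 137 CPM in Runx2wt and 108, 90.1 and 106 CPM in Runx2ko. These groups did not overlap, and it fell by 0.59 in Runx2ko (edgeR adjusted p = 0.0282). The other accessory subunits that fell in Runx2ko were Ndufa8, Ndufa10, Ndufa11, Ndufc1, Ndufc2 and Ndufs6, by 0.57 to 0.69.

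Some complex I genes went the other way without passing. Ndufv3, an accessory subunit of the NADH-oxidising arm, was at 81.5, 79.3 and 55.9 CPM in BM progenitors, 134, 146 and 96.5 CPM in Runx2wt and 84.5, 118 and 145 CPM in Runx2ko. Every transformed library lay above every BM progenitor library, but its log2 fold changes of 0.80 and 0.68 did not pass (edgeR adjusted p = 0.0635 and 0.0888). Without Runx2ko replicate 1 the latter was 0.86 and passed (edgeR adjusted p = 0.016). Ndufa6 had log2 fold changes of 0.37 and 0.40 that did not pass (adjusted p = 0.113 and 0.0886). Both were named after their values were seen. The most abundant nuclear subunit, Ndufa2, was at 387 to 464 CPM in BM progenitors, 470 to 555 CPM in Runx2wt and 358 to 446 CPM in Runx2ko, with log2 fold changes of 0.27 and 0.00.

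The 8 Ndufaf genes encode proteins that help build complex I and are not part of it. Of these, 1 of 8 fell in Runx2wt and 0 of 8 in Runx2ko, although their median log2 fold changes were -0.44 and -0.54. At an unadjusted p under 0.05, 3 of the 8 were lower in Runx2ko by edgeR, against 14.5% of all genes. Ndufaf4 was at 87.6, 128 and 105 CPM in BM progenitors, 66.9, 70.4 and 61.9 CPM in Runx2wt and 80.6, 82.7 and 58.3 CPM in Runx2ko. The BM progenitors lay above all transformed libraries, and the log2 fold change was -0.69 in Runx2wt (SE 0.20, edgeR adjusted p = 0.0498) and -0.53 in Runx2ko (adjusted p = 0.0946).

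Complex II, succinate dehydrogenase, also works in the citric acid cycle and has no mitochondrially encoded subunit. Of its 4 genes, 1 fell in Runx2wt and 2 fell in Runx2ko. Sdhb, the iron-sulfur subunit, was at 201, 209 and 190 CPM in BM progenitors, 125, 102 and 146 CPM in Runx2wt and 130, 113 and 113 CPM in Runx2ko. All transformed libraries lay below all BM progenitor libraries, and the transformed groups overlapped. Its log2 fold changes were -0.69 (SE 0.16, edgeR adjusted p = 0.0279) and -0.75 (SE 0.16, adjusted p = 0.0177). Sdha, the flavoprotein, was at 280, 257 and 262 CPM in BM progenitors, 229, 186 and 235 CPM in Runx2wt and 185, 203 and 172 CPM in Runx2ko. It too was lower in every transformed library, and it fell by 0.51 in Runx2ko (edgeR adjusted p = 0.0427), while -0.30 in Runx2wt did not pass.

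The membrane anchors of complex II did not pass in either comparison. Sdhc was at 156, 182 and 197 CPM in BM progenitors, 175, 155 and 158 CPM in Runx2wt and 104, 131 and 152 CPM in Runx2ko. Sdhd was at 73.6, 70.1 and 92.5 CPM in BM progenitors, 95.4, 71.8 and 52.4 CPM in Runx2wt and 17, 37.4 and 71.8 CPM in Runx2ko. Runx2ko replicate 1 was the lowest library for both anchors, and the Sdhd libraries of Runx2ko spread widely. The log2 fold change of Sdhd in Runx2ko was -0.90, and -0.54 without replicate 1.

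Complex III, the cytochrome bc1 complex, had the largest share of called subunits in Runx2ko, with 6 of 9 lower and a median of -0.65. In Runx2wt 2 of 9 fell, with a median of -0.35. Cyc1, the haem-bearing cytochrome c1 that hands electrons to cytochrome c, was at 201, 182 and 180 CPM in BM progenitors, 119, 90.9 and 109 CPM in Runx2wt and 102, 89.5 and 68.6 CPM in Runx2ko. All 6 transformed libraries lay well below the BM progenitors. Its log2 fold changes were -0.82 (SE 0.18, edgeR adjusted p = 0.0223) and -1.11 (SE 0.18, adjusted p = 0.00705), and it lies at chr15:76343523-76346260 on GRCm38. The Rieske iron-sulfur protein Uqcrfs1 was at 283, 303 and 361 CPM in BM progenitors, 238, 212 and 216 CPM in Runx2wt and 168, 216 and 218 CPM in Runx2ko. It fell by 0.65 in Runx2ko (edgeR adjusted p = 0.0267), and -0.51 in Runx2wt did not pass.

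The core proteins Uqcrc1 and Uqcrc2, which carry no redox group, both fell in Runx2ko, by 0.76 and 0.59 (edgeR adjusted p = 0.0288 and 0.0354), and Uqcrc2 fell in Runx2wt by 0.66 (adjusted p = 0.0310). The small subunit Uqcr10 was at 358, 347 and 361 CPM in BM progenitors, 294, 277 and 266 CPM in Runx2wt and 176, 225 and 214 CPM in Runx2ko. These groups did not overlap, and it fell by 0.79 in Runx2ko (SE 0.14, edgeR adjusted p = 0.00911). Uqcr11 fell by 0.75 (adjusted p = 0.0224). Uqcrb, Uqcrh and Uqcrq did not pass in either comparison. The most abundant nuclear subunit, Uqcrq, was at 593 to 648, 608 to 802 and 565 to 626 CPM in BM progenitors, Runx2wt and Runx2ko.

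Cycs encodes somatic cytochrome c, the carrier between complexes III and IV and also a trigger of caspase activation once released from mitochondria. It was at 58.5, 56.2 and 67.7 CPM in BM progenitors, 49.5, 34.5 and 38.8 CPM in Runx2wt and 17.3, 31.3 and 19.4 CPM in Runx2ko. The 3 groups were in order without overlap. Its log2 fold change was -1.41 in Runx2ko (SE 0.26, edgeR adjusted p = 0.00945), a 2.66-fold fall, and -0.57 in Runx2wt (SE 0.25, adjusted p = 0.151), which did not pass. Over all alternatives, the fits without single libraries included, the adjusted p of the Runx2ko fall ran from 4.77e-05 to 0.0456 (edgeR unless another tool is the alternative).

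Complex IV, cytochrome c oxidase, was the complex with a member that rose. Of its 15 tested genes, 1 rose and 1 fell in Runx2wt, and 1 rose and 2 fell in Runx2ko, with medians of -0.15 and -0.42. The Runx2wt counts are near the 8.28% and 5.23% of all genes, and the 1 that rose in Runx2ko is below 10%. Cox7a2l, also called SCAF1, is a relative of the Cox7a subunits that joins complex IV to complex III in respiratory supercomplexes. It was at 70.5, 79 and 74.9 CPM in BM progenitors, 151, 200 and 159 CPM in Runx2wt and 164, 130 and 189 CPM in Runx2ko. The transformed libraries lay clear of all BM progenitors. The rise was 2.27-fold in Runx2wt (log2 1.18, SE 0.18, edgeR adjusted p = 0.00653) and 2.15-fold in Runx2ko (log2 1.11, SE 0.18, adjusted p = 0.00718). Over the alternatives the adjusted p ran up to 0.0522 in Runx2wt, without BM progenitor replicate 3, and up to 0.047 in Runx2ko. Cox7a2l lies at chr17:83501918-83517330 on GRCm38.

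Among the ordinary subunits of complex IV, Cox5b fell in both comparisons and Ndufa4 in Runx2ko. Cox5b, a zinc-binding subunit on the matrix side, was at 280, 270 and 280 CPM in BM progenitors, 203, 188 and 188 CPM in Runx2wt and 170, 190 and 192 CPM in Runx2ko, with no overlap between BM progenitors and the rest. It fell by 0.52 (edgeR adjusted p = 0.0318) and 0.58 (adjusted p = 0.0181). Ndufa4, named for complex I but a subunit of complex IV, was at 160, 153 and 131 CPM in BM progenitors, 115, 83.7 and 66.3 CPM in Runx2wt and 66.5, 47.6 and 84.3 CPM in Runx2ko. All transformed libraries lay lower, and it fell by 1.16 in Runx2ko (SE 0.26, edgeR adjusted p = 0.0186), while -0.74 in Runx2wt did not pass. Cox4i1, the common form of the largest nuclear subunit, had log2 fold changes of 0.17 and -0.08 that did not pass, the latter 0.04 without Runx2ko replicate 1. Cox8a, the most abundant nuclear subunit, was at 652 to 702 CPM in BM progenitors, 535 to 603 CPM in Runx2wt and 435 to 543 CPM in Runx2ko, and its log2 fold changes of -0.23 and -0.42 did not pass.

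Several complex IV subunits exist as isoforms, and 3′ tag counts allow their shares to be compared because a transcript gives about a tag whatever its length. Cox7a2l made up 9.29%, 10.5% and 10.8% of the counts of the Cox7a family in BM progenitors, 17%, 27.7% and 22.5% in Runx2wt and 39.1%, 21.7% and 25.9% in Runx2ko. The highest share was in Runx2ko replicate 1 (95% Wilson interval 36.5% to 41.7%, counting error only), where Cox7a2 was at 255 CPM against 466 and 538 CPM in the other Runx2ko libraries. Cox7a2, the common form, had log2 fold changes of -0.14 and -0.65 that did not pass, the latter -0.39 without Runx2ko replicate 1. Cox7a1, the form of heart and muscle, was at or below 6.1 CPM in every library.

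Cox6a2, otherwise known from heart and skeletal muscle, was detected in all libraries. It was at 28.5, 25.5 and 29 CPM in BM progenitors, 55.3, 23.8 and 43.8 CPM in Runx2wt and 65.2, 30.9 and 44.3 CPM in Runx2ko. Runx2wt replicate 2 lay below the BM progenitors and the other transformed libraries above or just above them. Its share of the Cox6a counts was 5.66% to 6.28%, 6.56% to 11.5% and 9.31% to 17.1% in the same order, and its log2 fold changes of 0.57 and 0.75 did not pass (edgeR adjusted p = 0.279 and 0.157), the latter 0.43 without Runx2ko replicate 1. Cox6b2, the testis form, was at 0 to 9.41 CPM and did not pass. Cox4i2, a hypoxia-responsive form, had 8, 4 and 4 counts in BM progenitors, 1, 0 and 0 in Runx2wt and 0 in every Runx2ko library. Against a floor of 3 counts over the Runx2ko group this is 4.62-fold lower, with the 16 BM progenitor counts taken as exact. Their own counting error is left out of this value, and Cox4i2 was not tested. Ndufa4l2, the paralogue of Ndufa4, had at most 1.06 CPM in any library.

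**Figure D3:**
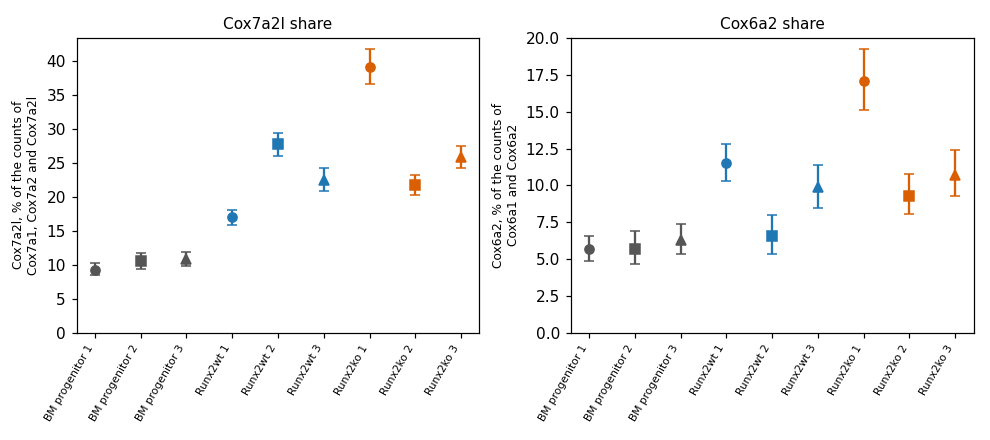
Each point is the share of Cox7a2l (left) or Cox6a2 (right) in the counts of its subunit family, in percent, by library, with its 95% Wilson interval. The Cox7a2l share is 9.29% to 10.8% in BM progenitors and at least 17% in every transformed library.

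**Figure D4:**
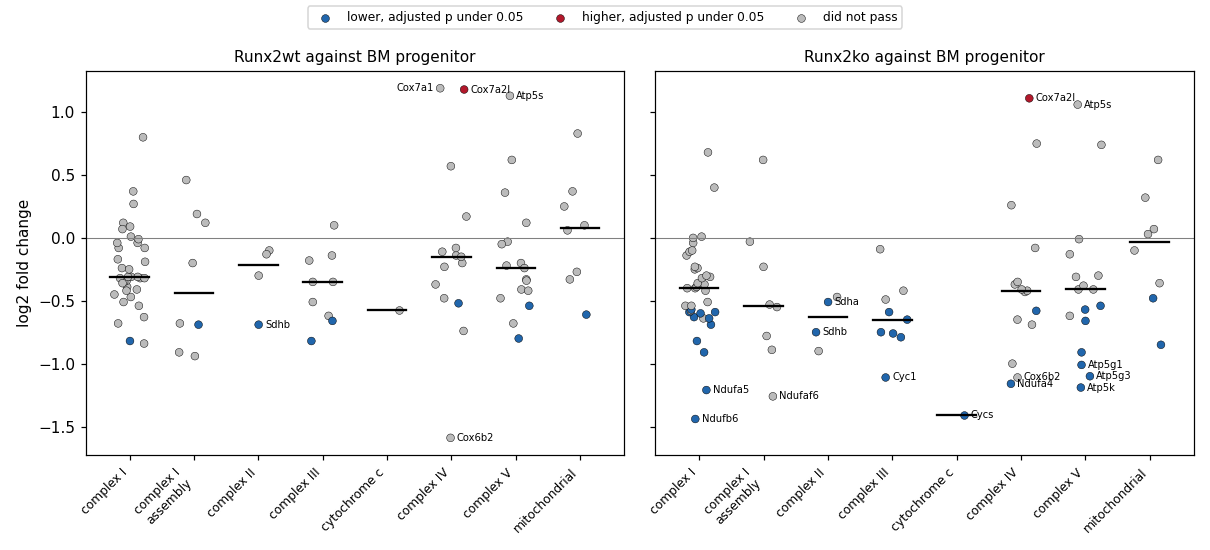
Each point is the log2 fold change of a tested gene against BM progenitors, by complex, for Runx2wt (left) and Runx2ko (right), and lines mark medians. Blue points fell and red points rose at an edgeR adjusted p under 0.05, with 8 nuclear genes blue on the left and 29 on the right, and Cox7a2l red on both sides.

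Complex V makes ATP with a rotor in the membrane and a catalytic head in the matrix. Of its 17 genes, 2 fell in Runx2wt and 7 fell in Runx2ko, and 0 rose in either, with medians of -0.24 and -0.41. Subunit c forms the membrane ring of the rotor and is encoded by Atp5g1, Atp5g2 and Atp5g3, which differ in their import sequences and give the same mature protein. Atp5g3 was the most abundant nuclear member and was at 2363, 2459 and 2434 CPM in BM progenitors, 1445, 1244 and 1473 CPM in Runx2wt and 893, 1215 and 1267 CPM in Runx2ko. The BM progenitors lay far above the transformed libraries, whose groups overlapped. Its log2 fold changes were -0.80 (SE 0.16, edgeR adjusted p = 0.0155) and -1.10 (SE 0.16, adjusted p = 0.00481), and it lies at chr2:73908447-73911326 on GRCm38.

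Atp5g1 was at 173, 162 and 165 CPM in BM progenitors, 128, 113 and 118 CPM in Runx2wt and 63, 96.5 and 88.1 CPM in Runx2ko. These groups did not overlap, and it fell by 1.01 in Runx2ko (edgeR adjusted p = 0.0085), while -0.48 in Runx2wt did not pass. Atp5g2 stayed at or below 8.37 CPM in every library. Atp5g3 gave 91.4% to 93.6% of the subunit c counts in all 9 libraries, so the shares of the 3 genes moved little while their sum was lower. Parts of the transcript ends of Atp5g1 and Atp5g2, but not of Atp5g3, recur in other genes, as described below. How such reads were counted is not given, so the level of these shares is uncertain.

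The catalytic head alternates alpha subunits, encoded by Atp5a1, and beta subunits, encoded by Atp5b. Atp5a1 was at 1040, 1036 and 1136 CPM in BM progenitors, 773, 704 and 734 CPM in Runx2wt and 664, 710 and 650 CPM in Runx2ko, with every transformed library below every BM progenitor library. It fell by 0.54 (SE 0.12, edgeR adjusted p = 0.0243) and 0.66 (SE 0.12, adjusted p = 0.0106). Atp5b was at 945, 956 and 963 CPM in BM progenitors, 762, 648 and 734 CPM in Runx2wt and 764, 634 and 525 CPM in Runx2ko, and it fell by 0.57 in Runx2ko (edgeR adjusted p = 0.0395). Atp5c1, the gamma subunit of the central stalk, fell by 0.54 in Runx2ko (adjusted p = 0.0425), and did not pass without Runx2ko replicate 1 (-0.48, edgeR adjusted p = 0.0542). Atp5d and Atp5e, the delta and epsilon subunits, did not pass in either comparison.

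In the membrane part, Atp5k, the e subunit that supports the pairing of ATP synthases, was at 565, 597 and 515 CPM in BM progenitors, 425, 292 and 327 CPM in Runx2wt and 178, 266 and 288 CPM in Runx2ko. The 3 groups lay in order without overlap. It fell by 1.19 in Runx2ko (SE 0.21, edgeR adjusted p = 0.00924), and -0.68 in Runx2wt did not pass (adjusted p = 0.0596). Atp5o, the subunit that ties the head to the peripheral stalk, was at 518, 538 and 425 CPM in BM progenitors, 415, 339 and 364 CPM in Runx2wt and 226, 282 and 281 CPM in Runx2ko. These groups did not overlap either, and it fell by 0.91 in Runx2ko (SE 0.16, edgeR adjusted p = 0.00924). Atp5s, a coupling factor outside the core enzyme, was named after its values were seen: it was at 5.09, 4.84 and 4.23 CPM in BM progenitors, 12.2, 8.56 and 10.3 CPM in Runx2wt and 12.2, 11.2 and 6.21 CPM in Runx2ko. All transformed libraries lay higher, but its log2 fold changes of 1.13 and 1.06 did not pass (edgeR adjusted p = 0.0619 and 0.0675).

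**Figure D5:**
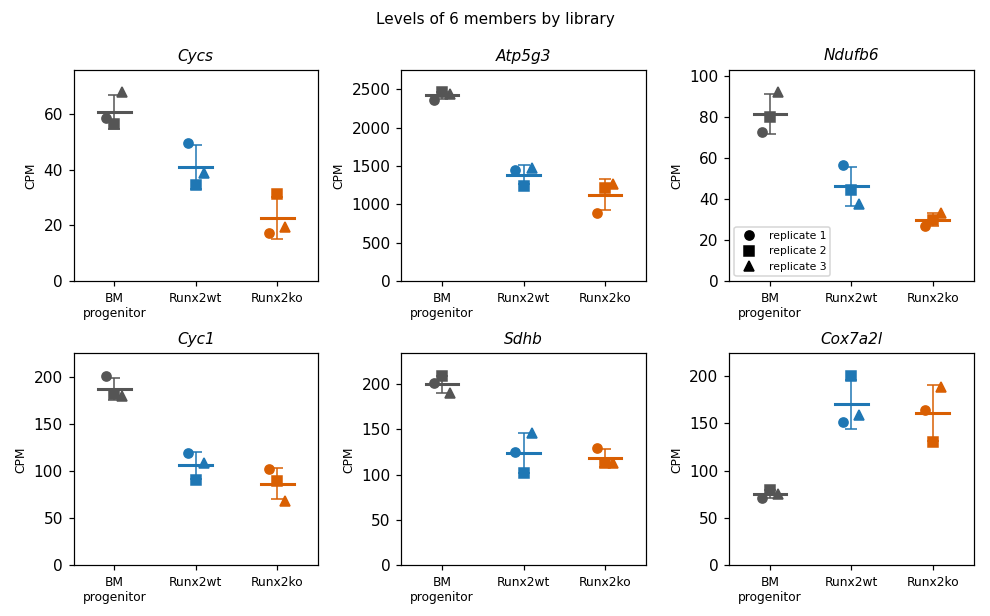
CPM of 6 nuclear members in each library (symbols by replicate), with the group mean (bar) and SD (error bar, n = 3). Cycs, Atp5g3, Ndufb6, Cyc1 and Sdhb are highest in the 3 BM progenitor libraries, and Cox7a2l is lowest there, at 70.5 to 79 CPM.

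By median and summed level, the genes of the mitochondrial genome were closer to the BM progenitor level than the nuclear ones. Their summed ratios were 0.962 in Runx2wt and 0.862 in Runx2ko, against 0.828 and 0.703 for nuclear members. Their median log2 fold change was 0.08 in Runx2wt (-0.02 when libraries were scaled by total counts) and -0.04 in Runx2ko (0.07 without Runx2ko replicate 1). By calls, 1 of 8 and 2 of 8 were lower and 0 higher, beside 8 of 90 and 29 of 90 nuclear members lower. In both comparisons 3 of 8 (mt-Nd1, mt-Nd2 and mt-Nd5) lay below every BM progenitor library, against 24.5% and 18.9% of all genes. mt-Nd2, a core subunit of the proton-pumping arm of complex I, was at 1168, 1225 and 1026 CPM in BM progenitors, 851, 672 and 719 CPM in Runx2wt and 683, 662 and 551 CPM in Runx2ko. The BM progenitors lay above all transformed libraries, and the fall was 0.61 (SE 0.16, edgeR adjusted p = 0.0348) and 0.85 (SE 0.16, adjusted p = 0.0101) on the log2 scale. mt-Nd1, another subunit of that arm, was at 4590, 4622 and 5177 CPM in BM progenitors, 3994, 3917 and 3560 CPM in Runx2wt and 3224, 3821 and 3278 CPM in Runx2ko. It fell by 0.48 in Runx2ko (edgeR adjusted p = 0.0377), and -0.33 in Runx2wt did not pass. The Runx2ko call of mt-Nd1 was lost without any single BM progenitor library and without Runx2ko replicate 1 or 3 (adjusted p up to 0.125), and that of mt-Nd2 without BM progenitor replicate 2 (0.0546).

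mt-Cytb, the cytochrome b of complex III, was at 3681 to 4087 CPM in BM progenitors, 3751 to 4355 CPM in Runx2wt and 2915 to 4234 CPM in Runx2ko. mt-Co1, the catalytic subunit of complex IV, was at 543 to 544, 528 to 649 and 481 to 688 CPM in the same order. mt-Nd4 was at 2872 to 3041, 3027 to 3748 and 2465 to 3468 CPM. These 3 genes did not pass, and the ranges of all 3 groups overlapped for each. mt-Nd5 had log2 fold changes of -0.27 and -0.36 and mt-Nd6, on the other strand of the genome, 0.37 and 0.32, and neither passed. mt-Nd3 was at 2.96 to 54.2 CPM with no order by group. The counts of the mitochondrial genes per count of nuclear members were 0.571, 0.599 and 0.640 in BM progenitors, 0.608, 0.767 and 0.740 in Runx2wt and 0.711, 0.803 and 0.706 in Runx2ko. Runx2wt replicate 1 lay within the BM progenitor range and the other 5 transformed libraries above it. The mitochondrial genes not analysed here are missing from these sums.

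Between the transformed groups, 0 of 90 nuclear members passed in either direction in Runx2ko against Runx2wt, as did 0% of all 11196 genes (edgeR quasi-likelihood test). DESeq2 called 0 members, and 0.098% of all genes lower and 0.264% higher. At an unadjusted p under 0.05, edgeR had 7 members lower and 0 higher, against 2.78% and 5.14% of all genes. The median log2 fold change was -0.22, against 0.01 over all genes, with 74 of 90 below 0. In 18 members every Runx2ko library lay below every Runx2wt library and in 0 above, against 4.79% and 4.93% of all genes. The 7 with an unadjusted p under 0.05 were Cycs at -0.84 (SE 0.25), Ndufb6 at -0.62 (SE 0.20), Uqcr11 at -0.61 (SE 0.18), Atp5g1 at -0.53 (SE 0.18), Atp5k at -0.51 (SE 0.21), Atp5o at -0.50 (SE 0.16) and Uqcr10 at -0.44 (SE 0.14), with edgeR adjusted p between 0.579 and 0.602. Without Runx2ko replicate 1 the median was -0.17 and 76 of 90 were below 0, with 0 passing, where 0.0258% of all genes passed lower and 0.0172% higher. A difference between the transformed groups in a single member was not shown.

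Lists of genes that serve the respiratory chain were described in the same way, and their counts stand beside the 5.23% of all tested genes that fell and the 8.28% that rose in Runx2wt, and the 7.14% and 10% in Runx2ko. Of 17 genes of the citric acid cycle and pyruvate dehydrogenase, which supply NADH and succinate, 1 fell in Runx2wt, near the share of all genes, and 3 fell in Runx2ko, with medians of -0.32 and -0.51 and 17 of 17 below 0 in Runx2ko. Idh2 was at 445, 415 and 353 CPM in BM progenitors, 225, 162 and 215 CPM in Runx2wt and 260, 225 and 192 CPM in Runx2ko, and it fell by 1.01 and 0.84 (edgeR adjusted p = 0.0121 and 0.0182). Idh3a and Fh1 fell in Runx2ko by 1.02 and 0.88 (adjusted p = 0.0295 and 0.0177). Of 24 tested genes of protein import, by which nuclear subunits reach the mitochondrion, 3 fell in Runx2wt and 7 in Runx2ko. The chaperone Hspd1 fell by 0.80 and 1.10 (adjusted p = 0.0455 and 0.0148), and the import subunits Tomm5 and Timm50 fell in Runx2ko by 1.24 and 0.96. Tomm70a fell by 0.61 in Runx2wt and 0.53 in Runx2ko, and Hspe1 by 0.63 and 0.66.

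Of 10 tested carriers and channels for adenine nucleotides and phosphate, 0 passed in Runx2wt and 2 fell in Runx2ko: Slc25a5, an ADP/ATP carrier, by 0.90 and the outer-membrane channel Vdac1 by 0.64 (edgeR adjusted p = 0.0487 and 0.0204). Of 22 tested factors of complex IV, 2 rose in Runx2wt, near the 8.28% of all genes: Coa4 by 1.10 and Cox14 by 0.79 on the log2 scale. In Runx2ko, Cox14 rose by 0.71 while Cmc2 and Slirp fell by 1.07 and 0.69. The 1 of 22 that rose there is below the 10% of all genes, and the 2 of 22 that fell are near the 7.14%. The complex II factor Sdhaf4 rose in Runx2wt by 0.81 (adjusted p = 0.0352), 1 of 4 tested. Of 8 further factors of complex I, 6 of complex III and 4 of complex V (its inhibitor included), 0 passed in either comparison, and their medians were 0.23, 0.20 and -0.13 in Runx2wt and 0.26, 0.14 and -0.18 in Runx2ko. Of 18 genes of ubiquinone synthesis and other electron entry, 1 rose in Runx2wt, Coq10a by 0.82, and 0 passed in Runx2ko. The 1 of 18 is below the 8.28% of all genes that rose in Runx2wt.

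Of 12 tested regulators of respiratory genes, 1 fell in each comparison with BM progenitors, a share near that of all tested genes (5.23% in Runx2wt and 7.14% in Runx2ko). Nrf1, whose motif is marked above, was at 68.9, 80.9 and 76.4 CPM in BM progenitors, 44.8, 39.5 and 48.5 CPM in Runx2wt and 70.7, 58.6 and 41.1 CPM in Runx2ko. It fell in Runx2wt by 0.77 (SE 0.21, edgeR adjusted p = 0.0433), and Runx2ko replicate 1 lay within the BM progenitor range. Ppargc1b, a coactivator of mitochondrial biogenesis, was at 17.3, 25.5 and 20.3 CPM in BM progenitors, 19.1, 9.67 and 13.9 CPM in Runx2wt and 8.67, 10.4 and 6.21 CPM in Runx2ko, and it fell in Runx2ko by 1.31 (adjusted p = 0.0292). Of 20 tested genes for mitochondrial DNA and RNA, 0 passed in Runx2wt and 1 fell in Runx2ko, Elac2, an RNase that trims mitochondrial tRNAs, by 1.06 (adjusted p = 0.0109), a share below the 7.14% of all genes. No gene of these lists passed between the transformed groups by edgeR.

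Copies elsewhere in the genome limit some values. Over the last 300 bases of their transcripts, 61 of 92 nuclear members shared no stretch of 50 bases with another annotated gene, Cox7a2l, Cycs, Cyc1, Atp5g3 and Ndufb6 among them. At least 50% of stretches were shared in 5 members: Atp5g2, Atp5h, Atp5l, Cox7c and Ndufs3. Among the genes that fell, Atp5o shared 40.9%, Atp5g1 36%, Ndufa12 27.7% and Cox5b 18.5%. mt-Co1, mt-Nd3 and mt-Atp6 shared 100%, 98.8% and 98.8% with nuclear copies of mitochondrial DNA, and mt-Nd2 31.9%. The sources used here do not say how reads that match several places were counted, so the values of these genes are uncertain.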

How the data were processed

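RNA of 9 samples was made into libraries from 500 ng with a QuantSeq 3′ reverse kit, per the labels' protocols, so a read marks a transcript's 3′ end. Raw counts by Ensembl gene were deposited by the authors, beside a table of normalized values. Per the submitters' processing notes FastQC, STAR, DESeq2 and the build GRCm38 were used. For their versions, the counter and its use of strand: not given in the sources used here. The normalized values the authors deposited, with decimal commas and of a unit not stated, equal the counts divided by 1 constant per library and served as an alternative only.

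Symbols came from GENCODE M21 (GRCm38) and matched 21042 of 21159 identifiers. The members and the other lists were chosen with earlier results of these data known. The test was that of edgeR 4.0.16, run in R 4.3.3 (quasi-likelihood F-test, TMM factors, filterByExpr, 11196 genes, all 9 libraries in 1 fit), with Benjamini-Hochberg adjustment over all tested genes and a threshold of 0.05. A passing gene is said to rise or fall. CPM used TMM-scaled library sizes, and standard errors came from the F statistic. On simulated data with 200 changed genes, 57.4% (Runx2wt against BM progenitors), 72.9% (Runx2ko against BM progenitors) and 66.7% (Runx2ko against Runx2wt) of 4-fold changes were recovered, and 3.7%, 3.03% and 11.5% of 2-fold changes, each in a fit of 11196 genes. The comparisons with BM progenitors called more genes than that (927 higher and 586 lower in Runx2wt, 1125 and 799 in Runx2ko). Recovery in the data can therefore differ from these shares, and falls under 2-fold passed there, such as that of Sdha.

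Named were all mitochondrial genes, complex II, Cyc1, Cycs, the isoform families, the most abundant and up to 3 passing members per direction and complex, and up to 3 passing genes of each other list. The other passing members, and the genes so described, were named after their values were seen. No library was a copy: within groups the chi-square of counts per gene was 4.25 or more. Alternatives were DESeq2 1.42.0, limma-voom (limma 3.58.1), RLE or total-count scaling, no filter, only the compared libraries, a replicate block, the normalized values with a pseudocount of 1, and leaving out each library. With 3 libraries a group, wide intervals follow, and intervals and floors cover counting error only. Promoters came from RefSeq (GRCm38.p6).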

Additional observations from a re-analysis of the deposited data

How the results depend on the processing

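Across the named genes, 932 values under other settings and 951 with a library left out kept their direction and their side of the threshold, 48 and 138 kept the direction but no longer passed, 10 and 10 passed in addition, and 16 and 35 changed sign. The cause of these changes was not tested unless stated. In Runx2wt against BM progenitors the count of lower members went from 8 to 15 with DESeq2, 16 with total counts, 4 without the low-count filter, 27 with only the compared libraries and 2 with a replicate block, and the count of higher members from 1 to 2 with DESeq2 and 4 with only the compared libraries. In Runx2ko against BM progenitors the lower count went from 29 to 18 with only the compared libraries and 15 with the replicate block. With a library left out, the counts in Runx2wt ran from 0 to 21 lower and 0 to 3 higher, and in Runx2ko from 8 to 31 lower and 1 to 3 higher. Between the transformed groups the count was 0 under every setting run. Scaling by total counts moved the median of all genes from 0.01 to -0.09 in Runx2wt and from 0.07 to -0.02 in Runx2ko, the nuclear medians to -0.40 and -0.59, the summed ratio in Runx2wt of mitochondrial genes from 0.962 to 0.895 and that of complex I subunits from 0.873 to 0.815. Without Atp5g3, an alternative chosen after the data were seen, the complex V ratios went from 0.746 to 0.818 and from 0.617 to 0.68, since the sum then lacks its largest gene. Same-numbered libraries had deviations correlated between -0.059 and 0.067. Of 18 combinations of a library with another group, 7 were highest at its own number. With 3 libraries a group, these values cannot decide whether equal numbers share a source, and the labels give none.

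All log2 fold changes that changed sign were of genes that did not pass. In Runx2ko against BM progenitors, Ndufa2 (0.00) became -0.01 with DESeq2, RLE factors, no filter and the normalized values, -0.08 with total counts and -0.00 with the replicate block. There mt-Co1 (0.03) became -0.06 with total counts and -0.01 with the normalized values, and mt-Nd4 (0.07) became -0.01 with total counts. In Runx2wt against BM progenitors, total counts turned mt-Co1 to -0.01 and mt-Cytb to -0.04, and the normalized values turned mt-Nd3 to -0.06. In Runx2ko against Runx2wt, mt-Nd3 became 0.39 with limma-voom, 0.47 with the replicate block and 0.79 with the normalized values, and Atp5g2 became -0.02 with limma-voom. With a library left out, the ranges in Runx2ko against Runx2wt were -0.18 to 0.42 for Atp5g2, -0.14 to 0.47 for Cox6a2, -0.13 to 2.56 for Cox6b2, -0.21 to 0.08 for Cox7a2l, -0.19 to 0.06 for Sdhb, -0.26 to 0.05 for mt-Co1, -0.71 to 2.38 for mt-Nd3, -0.19 to 0.01 for mt-Nd5 and -0.29 to 0.17 for mt-Nd6. In Runx2ko against BM progenitors they were -0.34 to 0.04 for Cox4i1, -0.47 to 0.72 for Cox7a1, -0.06 to 0.09 for Ndufa2, -0.18 to 0.18 for Ndufaf8, -0.16 to 0.12 for mt-Co1, -0.21 to 0.04 for mt-Cytb and -0.02 to 0.20 for mt-Nd4. In Runx2wt against BM progenitors they were -0.36 to 0.09 for Sdhd, -0.07 to 0.16 for Uqcrq and -1.76 to 1.32 for mt-Nd3.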
